A study of Mus musculus with 2 samples.

Results

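Intergenic regions of open chromatin close upstream of protein-coding genes were examined in mouse T cells. Overlapping peaks of both libraries on chromosomes 1 to 19 were merged, with a minimum overlap of 1 bp, and a merged region was called shared when it held a peak from each library. A shared region was kept when the summit of its strongest peak lay outside every protein-coding gene body and more than 1000 and up to 10000 bp from the nearest protein-coding transcription start, on the upstream side of that start. Distance ranges below leave out their lower end in the same way. These upstream regions numbered 3866 of 65318 shared regions, or 5.92%, out of 82687 merged regions in all. They were chosen by position and by a peak in each library, without use of their sequence. Weak peaks more often lacked a partner in the other library, so the choice left out weak regions more often. The sequence in which such a summit could fall, called eligible sequence below, came to 115 Mb, or 4.68% of the autosomes, and the upstream regions covered 2.95 Mb.

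The data were ATAC-seq peak lists. ATAC-seq uses a transposase that cuts and tags DNA where nucleosomes leave it exposed, so that peaks mark open chromatin. There was 1 group with 2 libraries, both of primary T cells from C57BL/6NJ mice with no stated genotype change. The labels call them biological replicates, 1 and 2. Both carry the same donor record, sex was not collected and age was unknown, so whether they came from separate animals is not known, and the spread between them may be technical. The cells are named only as T cells, with a link to a protocol on CD4+ T-cell differentiation. The peak names contain Th0, 72hrs and ASTARR.insert, words that no source used here explains, so whether the fragments came straight from cells or from a library of inserts is not known. With 1 group no test between conditions was possible, and values are given for replicate 1 and then replicate 2 throughout. The depth of sequencing is unknown, since no read number is stated. Of 8 T-cell marker genes, 7 had a shared region within 1000 bp of a start (Cd2, Cd28, Cd3d, Cd3e, Cd3g, Cd5 and Lck, but not Cd247), with signals between 2.45 and 9.91 in replicate 1 and between 2.61 and 10.6 in replicate 2. The same held for 1 of 6 B-cell markers (Pax5) and 1 of 6 myeloid markers (Cd14).

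The sequence just upstream of a gene can hold enhancers, which bind transcription factors and raise transcription of a promoter at a distance, and insulator sites bound by CTCF, a zinc-finger protein that anchors chromatin loops. In activated T cells, AP-1 dimers of the Fos, Jun and Batf families bind many enhancers, often beside factors of the IRF, NFAT, NF-kB, RUNX and ETS families. Stretches rich in CpG dinucleotides usually mark promoters, including those of noncoding RNAs.

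The sequences below show the summit base of 6 upstream regions with 100 bases to each side, chosen for the consensus matches that the results turn on. They are given on the plus strand of GRCm38 (mm10), from the RefSeq copy of the C57BL/6J assembly, with the matches named here, all within 50 bp of the summit, in capitals and any other match left in lower case. The first 3 hold the AP-1 sequence TGACTCA, which reads TGAGTCA on the opposite strand. In the Mefv region it is part of the AP-1 and IRF composite, and the Mefv and Il7r regions also hold an NF-kB sequence. The Cd69 region holds an ETS sequence (CAGGAAG), an E-box (CAGCTG) and a RUNX sequence (AACCACA). The Fam178b and Man1c1 regions hold the CTCF consensus and were among the 3 strongest upstream regions that did.
Mefv, chr16:3723369-3723569: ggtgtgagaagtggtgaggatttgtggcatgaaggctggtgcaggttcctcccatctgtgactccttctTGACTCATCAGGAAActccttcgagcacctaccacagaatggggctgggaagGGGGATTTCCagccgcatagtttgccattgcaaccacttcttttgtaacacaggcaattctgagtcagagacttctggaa
Il7r, chr15:9535310-9535510: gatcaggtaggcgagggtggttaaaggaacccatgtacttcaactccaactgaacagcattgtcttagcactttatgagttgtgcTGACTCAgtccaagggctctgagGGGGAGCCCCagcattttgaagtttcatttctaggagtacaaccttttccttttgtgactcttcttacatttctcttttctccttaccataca
Irf4, chr13:30739845-30740045: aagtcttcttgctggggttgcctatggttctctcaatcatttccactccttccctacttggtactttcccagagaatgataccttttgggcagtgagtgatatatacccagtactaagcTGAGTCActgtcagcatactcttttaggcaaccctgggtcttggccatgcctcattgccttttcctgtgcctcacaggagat
Cd69, chr6:129284494-129284694: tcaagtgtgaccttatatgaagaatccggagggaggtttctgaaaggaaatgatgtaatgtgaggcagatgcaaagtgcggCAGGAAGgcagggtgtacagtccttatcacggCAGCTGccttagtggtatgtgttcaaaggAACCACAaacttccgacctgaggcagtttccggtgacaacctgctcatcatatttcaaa
Fam178b, chr1:36684246-36684446: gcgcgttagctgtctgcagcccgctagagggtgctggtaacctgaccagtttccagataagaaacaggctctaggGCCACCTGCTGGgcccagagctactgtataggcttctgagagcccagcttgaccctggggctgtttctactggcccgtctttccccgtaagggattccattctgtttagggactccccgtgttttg
Man1c1, chr4:134714037-134714237: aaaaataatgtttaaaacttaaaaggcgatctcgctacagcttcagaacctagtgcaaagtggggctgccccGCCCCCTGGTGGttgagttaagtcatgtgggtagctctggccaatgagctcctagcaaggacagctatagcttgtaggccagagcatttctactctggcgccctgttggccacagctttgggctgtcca

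The signal of a peak, a ratio in the authors' lists that was taken as the fold of the summit over background, had a median of 6.18 in replicate 1 and 5.99 in replicate 2 over the upstream regions, or 6.08 ± 0.138 (SD, n = 2 libraries). Values ran from 1.58 to 21.02 and from 1.38 to 18.96. Promoter regions, with a summit within 1000 bp of a coding start, had medians of 10.8 and 10.3, and intergenic regions over 10000 bp from a start had medians of 7.35 and 7.004. Regions inside gene bodies at the same 1000 to 10000 bp from a start had medians of 5.82 and 5.67. By signal, upstream regions were thus weaker than far intergenic ones and close to gene-body regions at the same distance, in both libraries. By the summit counts recovered below, called pile-ups, the order against far intergenic regions was the reverse, with medians of 75 and 55 upstream and 63 and 46 far from genes. Their median width was 666.5 bp, against 1276 bp at promoters and 697 bp at far intergenic regions.

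The libraries gave nearly the same order of upstream regions. Pearson's r of the log2 signals was 0.95 across the 3866 regions, a description across regions and not across samples. The log2 ratio of replicate 1 to replicate 2 had a median of 0.05 and an SD of 0.23, and the summits of the 2 libraries lay a median of 11 bp apart. The signal differed by more than 2-fold in 3 regions, upstream of Emc7 (3.03 and 8.89), Stra6l (7.12 and 2.97) and Olfr374 (7.12 and 3.40). Of all merged regions at upstream positions, 77.8% were in both lists (95% interval 76.7 to 79.0, exact Clopper-Pearson, here and below, covering counting error only). A further 681 were in replicate 1 alone, with a median signal of 3.21, and 419 in replicate 2 alone, with a median of 3.28. At all positions, 65318 of 82687 merged regions were in both lists. The share was 77.5% at far intergenic positions and 94.9% within 1000 bp of a start. In gene bodies it was 74.5% at 1000 to 10000 bp from a start and 74.1% beyond that. Of the weakest 25% of replicate 1's peaks at upstream positions 59.98% had a partner in replicate 2, and of the strongest 25% the share was 99.4%. From replicate 2 the corresponding shares were 72.9% and 99.8%. Since the lists hold only peaks past the caller's threshold, a region missing from one list cannot be told from one just below it.

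The signal and the deposited −log10 p of a peak together gave back 2 underlying counts. If the signal is the summit's pile-up plus 1, divided by the expected background plus 1, and p is the Poisson probability of a larger pile-up, then each pair of values fixes both numbers. This form was inferred from the values and is stated by no source. Under it, all but 16 of 76230 autosomal peaks in replicate 1 and all but 5 of 72904 in replicate 2 gave a pile-up within 0.01 of a whole number. Whether the pile-up counts reads, insertions or fragments is not known. The lowest background that many peaks shared, the value for the whole genome, was 5.04 in replicate 1 and 3.71 in replicate 2, a ratio of 1.36. Upstream regions had a median pile-up of 75 and 55. Their ratio between libraries had a median of 1.36, and its log2 values an SD of 0.25, against a median counting SD of 0.26 if pile-ups followed Poisson counting. Only regions past the threshold in both lists entered this spread, and the counts behind a pile-up may not be independent, so the 2 SDs are set side by side as a description. The background was raised above the genome value in 79.0% and 80.4% of upstream regions, against 64.0% and 65.3% of far intergenic regions.

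These counts separated the 3 regions that differed most between the libraries. At Emc7, which encodes a subunit of a membrane protein insertase, the pile-ups were 45 and 53 while the backgrounds were 14.2 and 5.07. At Stra6l the pile-ups were 42 and 13 over backgrounds at the genome value. At Olfr374, an olfactory receptor gene, they were 42 and 15, again over the genome value. At Emc7 both counts departed from the library ratio of 1.36, with a higher pile-up and a lower background in replicate 2 relative to replicate 1. At the other two the background was the genome value and only the pile-ups departed from that ratio.

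With all peaks, upstream regions were not densest next to the start. Their summits lay between 1004 and 10000 bp from it, with a median of 5443 bp. Counted per Mb of eligible sequence, there were 32.7 at 1000 to 2000 bp, 27.3 at 3000 to 4000 bp, 37.9 at 5000 to 6000 bp and 40.8 at 8000 to 9000 bp. The density at 1000 to 2000 bp divided by that at 5000 to 10000 bp was 0.872, and over merged regions with a peak in replicate 1, shared or not, it was 0.876, and in replicate 2 0.867. With only the 50000 peaks of highest pile-up in each library it was 1.06, so the direction turned. On the gene side of the start, at the same distances inside gene bodies, this ratio was 0.951. Shared promoter regions covered only 1.15% of the eligible sequence at 1000 to 2000 bp.

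The dip close to the start was found upstream of genes whose own promoter was accessible. Of the 3866 upstream regions, 2930 had a nearest gene with a shared promoter region and 936, or 24.2%, did not. Upstream of genes with a promoter region, the density stayed between 31.0 and 33.9 per Mb in each 1000 bp step up to 5000 bp, then was 52.2 at 5000 to 6000 bp and 56.98 at 8000 to 9000 bp. Upstream of genes without one it was lower farther out, going from 31.2 at 1000 to 2000 bp to 16.7 at 5000 to 6000 bp and 14.3 at 9000 to 10000 bp. The difference between these patterns was not tested. Merged regions with a peak in a given library, shared or not, had the same step for genes with a promoter region. Their density went from 39.5 per Mb within 5000 bp to 61.0 beyond it in replicate 1, and from 36.1 to 57.5 in replicate 2. Shared regions are part of both counts.

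**Figure D1:**
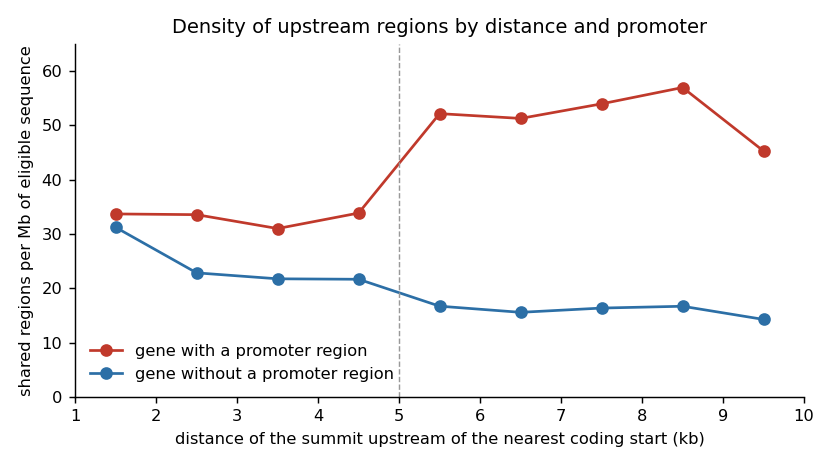
Shared upstream regions per Mb of eligible sequence (y axis) against the distance of the summit from the nearest coding start in kb (x axis), in steps of 1000 bp. Red points are genes with a promoter region in both libraries and blue points are genes without one; the dashed line marks 5000 bp, where the red density goes from 33.9 to 52.2 while the blue falls from 21.7 to 16.7.

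Signal and pile-up ran in opposite orders along this distance. Upstream of genes with a promoter region, the median signal was 4.70 and 4.57 within 5000 bp and 6.98 and 6.75 beyond it. The median pile-up was 105 and 76 within 5000 bp and 64 and 48 beyond it. What changed with them was the background, with medians of 21.4 and 16.0 within 5000 bp and 7.69 and 5.75 beyond it. In steps of 500 bp the background stood at 18.8 and 13.1 at 4500 to 5000 bp, at 11.0 and 8.24 at 5000 to 5500 bp, and at 8.23 and 6.11 at 5500 to 6000 bp. How the caller set its background is not given in the sources used here, and whether a local window of fixed size in the caller gave the step at 5000 bp was not tested. Regions close to an accessible promoter therefore ranked lower by signal and higher by pile-up than regions farther from it, in both libraries.

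Upstream of genes without a promoter region there was no such step. The medians within and beyond 5000 bp were 7.07 and 7.28 for signal in replicate 1, 6.71 and 7.03 in replicate 2, 62 and 61.5 for pile-up in replicate 1, and 48 and 46 in replicate 2. The background there was 7.49 and 6.47 in replicate 1 and 5.48 and 4.86 in replicate 2.

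The step in density was not seen among regions of high pile-up. The threshold by which a peak entered a list is not given, and its part in the step was not tested. For genes with a promoter region, the 10th percentile of pile-ups was 40 and 30 within 5000 bp, and at 26 and 20 beyond it. With only upstream regions whose pile-up was at least 20 times the genome background in each library, the density was 16.2 per Mb within 5000 bp (566 regions) and 15.6 beyond it (532 regions). The same cutoff, chosen after the data were seen, gave 7.42 and 4.43 per Mb for genes without a promoter region.

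**Figure D2:**
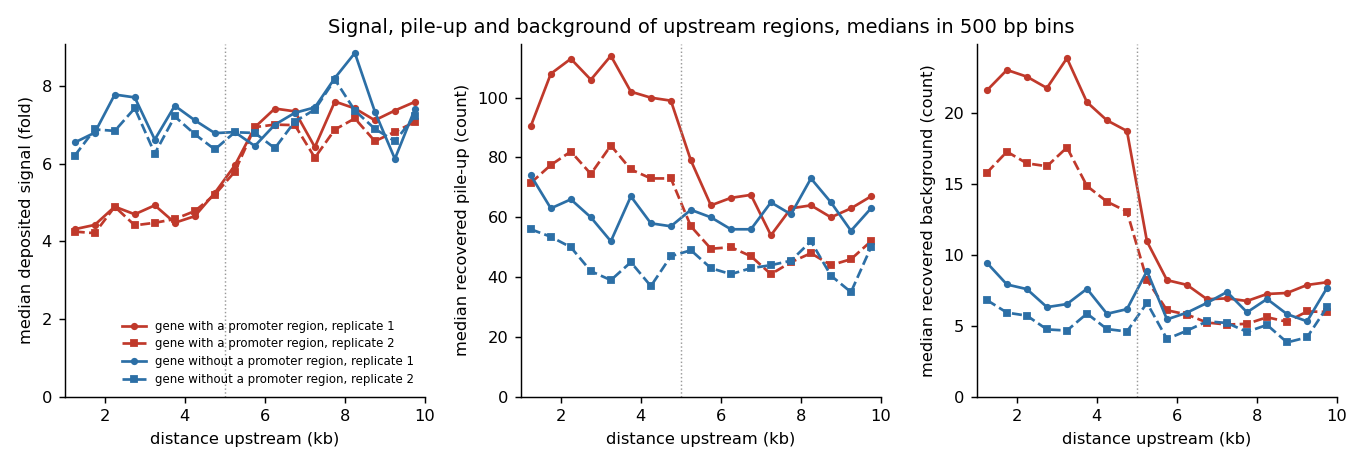
Median deposited signal (left, fold), recovered pile-up (middle, count) and recovered background (right, count) of upstream regions in steps of 500 bp against the distance upstream in kb. Solid lines with circles are replicate 1, dashed lines with squares replicate 2, red genes with a promoter region and blue genes without; on crossing 5000 bp (dotted line) the red background drops from 18.8 to 11.0 in replicate 1 while the red signal goes from 5.25 to 5.95.

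Signals were compared on both sides of the rule's limits. The 50 upstream regions in the first 100 bp of the range had median signals of 6.54 and 6.32, and the 51 shared intergenic regions in the 100 bp before it had 6.29 and 5.74, with median widths of 776.5 bp and 1011 bp. At the far end, the 38 regions in the last 100 bp had medians of 7.13 and 6.68, and the 41 in the next 100 bp had 7.59 and 8.12. Although the summit lay over 1000 bp away, the interval of 213 upstream regions (5.51%) reached within 1000 bp of the start, and that of 50 covered it.

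The nearest genes numbered 3285, or 20.1% of the 16346 autosomal protein-coding genes that owned eligible sequence. Of them 2749 had 1 upstream region, 491 had 2 and 45 had 3. A shared promoter region was present at 75.6% of these genes (74.1 to 77.1), against 56.99% (56.1 to 57.8) of the 13061 genes with eligible sequence and no upstream region. Put the other way, 25.02% of genes with a promoter region had an upstream region, against 12.5% of genes without. Both groups of genes had a median of 9000 bp of eligible sequence, and per Mb there were 42.4 regions in the first and 20.3 in the second. By signal the promoter regions themselves were lower where an upstream region was present, with medians of 9.45 and 9.10 against 11.8 and 11.2. By pile-up the strongest promoter regions of these genes, counted once for each of 2929 upstream regions, had medians of 236 and 171. All 13587 promoter regions, those of these genes included, had 242 and 173. Promoter pile-ups of genes without an upstream region were not taken apart, so the contrast by signal has no match by pile-up.

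Most upstream regions were less accessible than their gene's promoter. By signal, 28.7% and 27.9% of the 2930 exceeded the strongest promoter region of the gene. By pile-up, 19.2% and 18.9% did, with medians of 80 and 58 for the upstream regions. The pile-up is not divided by the local background, and no background was taken off it. Spearman's rho between the 2 signals was 0.14 in each library, a description across regions that share libraries and, in part, genes.

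AP-1 was the most frequent of the sequences searched for that stood out from the flanks. TGACTCA, on either strand, was within 50 bp of the summit in 619 upstream regions, or 16.0% (14.9 to 17.2), against 15.5% of all shared regions. In windows of the same 100 bp length centred 500 bp to each side the share was 1.68%. Gene-body regions, here and below all those over 1000 bp from a start, had it in 19.1% (18.6 to 19.6). Far intergenic regions had it in 19.2% (18.7 to 19.8), so it was less frequent in upstream regions than in both classes beyond counting error. Promoter regions had it in 2.87%. Sequence shares of gene-body regions at 1000 to 10000 bp alone were not taken. The median signal was 6.78 and 6.69 in upstream regions with the sequence and 6.12 and 5.94 in those without.

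CTCF showed the opposite order. Its consensus was in 269 upstream regions, or 6.96% (6.18 to 7.81), against 4.58% of all shared regions and 0.103% in the flanks. It was in 5.05% (4.80 to 5.31) of gene-body regions and 5.79% (5.46 to 6.14) of far intergenic regions, so of these 3 classes upstream regions had the highest share. Upstream regions with the CTCF consensus had median signals of 7.71 and 7.30, against 6.12 and 5.94 without it. It was present in 9.08% (7.32 to 11.1) of upstream regions of genes without a promoter region and in 6.28% (5.43 to 7.22) of those of genes with one. The consensus pointed the same way as the gene in 150 regions and the opposite way in 119, or 55.8% the same way (49.6 to 61.8), an interval that includes an even split. Only 7 upstream regions held both AP-1 and CTCF within 50 bp of the summit. CTCF was thus present in 1.13% of regions with AP-1 and in 8.07% of those without it.

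**Figure D3:**
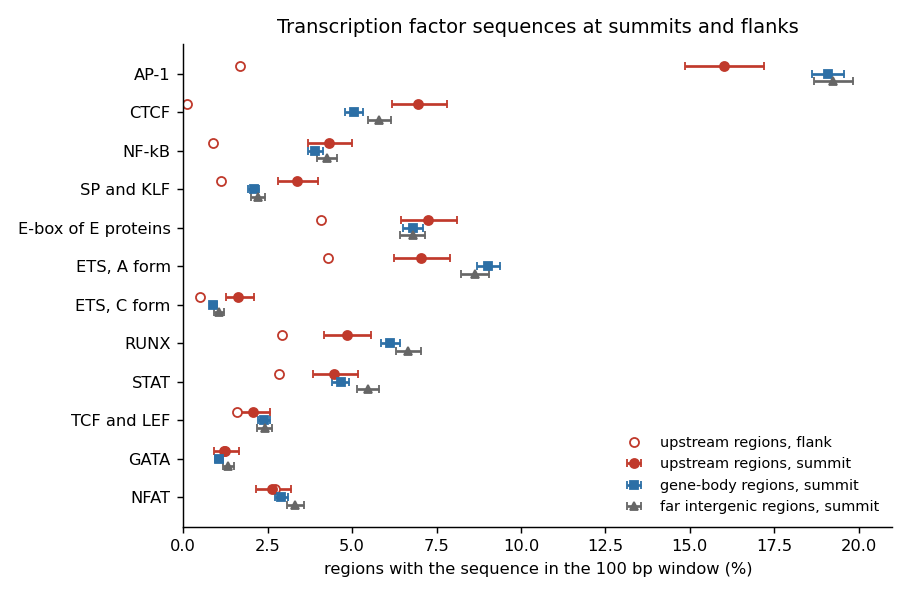
Share of regions (x axis, percent) with each consensus sequence (y axis) in the 100 bp window. Filled red circles are upstream regions at the summit and open red circles the same regions at the flanks. Blue squares are gene-body regions at any distance over 1000 bp from a start, and grey triangles are far intergenic regions. Summit shares have 95% Clopper-Pearson intervals. AP-1 is at 16.0% against 1.68% in the flanks and CTCF at 6.96% against 0.103%.

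Other sequences stood out less. The NF-kB consensus was in 4.32% (3.70 to 5.01) of upstream regions, in 0.867% of their flanks and in 3.65% of all shared regions. GGGCGGG, bound by SP and KLF factors, was in 3.36% (2.82 to 3.98), against 1.13% in the flanks, 6.41% of all shared regions and 22.2% of promoter regions. The E-box bound by E proteins such as Tcf3 and Tcf12 was in 7.24% (6.45 to 8.11), against 4.07% in the flanks and 6.58% of all shared regions. ETS sequences came in 2 forms. CCGGAAG was in 1.63% (1.25 to 2.08) against 0.491% in the flanks and 2.38% of all shared regions, and the form with A before GGAA, shown above, in 7.04% (6.25 to 7.89) against 4.28% and 7.97%. The latter was more frequent in gene-body regions, at 9.03%, and so was the RUNX sequence TGTGGTT, at 6.14% there and 4.84% (4.18 to 5.56) upstream, against 2.92% in the upstream flanks and 5.25% of all shared regions. The STAT sequence (TTCNNNGAA) was in 4.47% (3.84 to 5.17), against 2.83% in the flanks and 4.31% of all shared regions. The AP-1 and IRF composite was in 9 upstream regions, or 0.233% (0.107 to 0.441), and in 0.312% of all shared regions. The NFAT sequence TGGAAAA was in 2.64%, against 2.73% in the flanks and 2.59% of all shared regions. For IRF factors, GAAANNGAA was in 3.62%, against 3.49% and 3.99%. For erythroid and T-cell factors of the Gata family, AGATAAG was in 1.24%, against 1.20% and 0.991%. The last 3 were about as frequent at the summit as beside it. An AP-1, CTCF, RUNX or ETS sequence (either ETS form) was in 33.6% of upstream regions. The same joint share was not taken for the flanks or for all shared regions.

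Positions around the summit differed between the 2 leading sequences. AP-1 matches were spread over the summit, with 265 centred within 20 bp of it and 306 at 20 to 40 bp. CTCF matches avoided the summit itself, with 5 centred within 20 bp, 236 at 20 to 40 bp and 61 at 40 to 60 bp. Gene-body regions showed the same arrangement for CTCF, with 25, 1237 and 326, and far intergenic regions did too, with 11, 938 and 268. RUNX matches gathered less at the summit, with 84 and 88 in these first steps and a mean of 46.4 per 40 bp at 400 to 500 bp. The Fam178b and Man1c1 sequences above show CTCF matches to the left of the summit base. That of Man1c1 is centred at 20 to 40 bp. That of Fam178b is centred just within 20 bp and is among the 5.

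**Figure D4:**
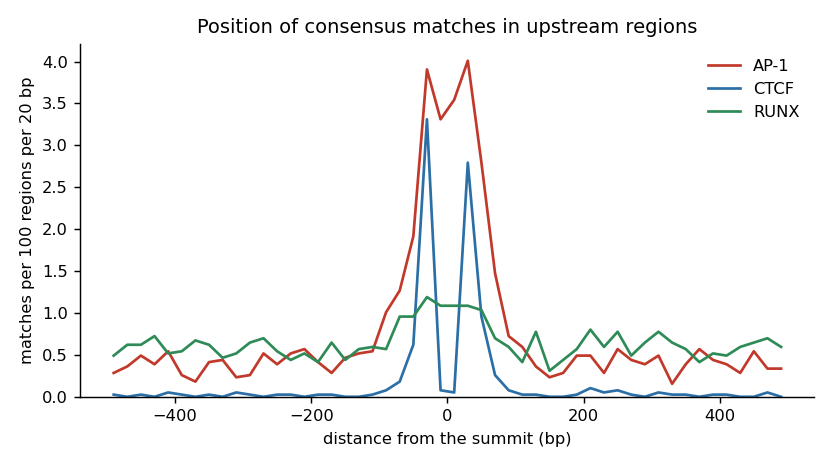
Matches per 100 upstream regions in steps of 20 bp (y axis) against the distance of the match's centre from the summit in bp (x axis), for AP-1 (red), CTCF (blue) and RUNX (green). CTCF has 2 peaks, 3.31 at 20 to 40 bp to the left and 2.79 to the right, and is at 0.0776 and 0.0517 on either side of the summit, where AP-1 is at 3.31 and 3.54.

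The link of these sequences to strength depended on how strength was measured. In 4 equal groups from the weakest to the strongest by signal, AP-1 shares were 12.3%, 15.1%, 15.4% and 21.2%, and CTCF shares 3.72%, 6.00%, 7.87% and 10.2%. By pile-up, AP-1 shares were 13.7%, 15.7%, 16.8% and 17.9%, a smaller range in the same order. CTCF shares by pile-up were 5.17%, 7.97%, 10.2% and 4.45%, highest in the third group and lowest in the strongest. Regions of that strongest group were 917 bp wide at the median, compared with 516 bp in the weakest, and 17.1% of it was CpG-rich against 5.38%. Among the 100 upstream regions of highest mean signal, 31 had AP-1 and 15 had CTCF.

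Some upstream regions resembled promoters in base composition. A summit window of 200 bp with at least 50% G and C and an observed-to-expected CpG ratio of at least 0.6 was counted as CpG-rich. This held for 361 upstream regions, or 9.34% (8.44 to 10.3), below the 19.1% of all shared regions, which include promoter regions at 73.4%. It held for 3.93% of gene-body regions and 5.19% of far intergenic regions. The share was 15.8% at 1000 to 2000 bp from the coding start and 7.18% beyond 5000 bp. CpG-rich upstream regions had a median width of 932 bp, against 651 bp for the others. Of the 361, 248 had no annotated start of any kind within 1000 bp.

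Starts of noncoding genes lay near a minority. An annotated noncoding gene started within 1000 bp of the summit in 266 upstream regions, or 6.88% (6.10 to 7.72), where 4.00% of eligible sequence lies that near to one. Long noncoding RNA genes accounted for 177 regions, or 4.58% (3.94 to 5.29) against 1.52% of the sequence, and small RNA genes for 42, or 1.09% (0.784 to 1.47) against 0.601%. Pseudogenes stood at 1.55% against 1.96%. Regions near a noncoding start were CpG-rich in 23.3% and held AP-1 in 6.39%, and their median width was 820.5 bp. A RefSeq messenger RNA start that is not among the GENCODE coding starts used here lay within 1000 bp of 170 upstream regions (4.40%), so that in that annotation they lie at a gene start. No start of a noncoding gene or RefSeq RNA lay within 1000 bp of 3374 regions, or 87.3%.

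Values were close whichever way the neighbouring gene pointed. The gene on the other side of the upstream region was divergent in 44.7% (1729 regions) and in tandem in 55.3% (2136), with 1 region having no gene beyond it. Median signals were 6.29 and 6.03 in the divergent and 6.14 and 5.95 in the tandem layout. CTCF shares were 7.40% (6.21 to 8.74) and 6.60% (5.58 to 7.74), and AP-1 shares 15.7% and 16.2%. Another shared region lay within 5000 bp of the summit in 51.7% of upstream regions, against 36.8% of all shared regions. The rule places upstream regions near a start, and 1153 lay within 5000 bp of the start of a gene with a promoter region. That promoter region can be the neighbour, and the share without it was not taken. The density was highest on chromosome 11, at 50.1 per Mb, and lowest on chromosome 16, at 23.1.

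Lists of genes of T-cell function often had an upstream region, read against the 20.1% of all genes with eligible sequence and the 25.02% of those with a promoter region. No test was made of the lists, whose genes and whose frequent promoter regions were known from earlier results. Of the core T-cell genes 18 of 22 had one, and 20 of the 22 had a promoter region. Activation genes also stood at 18 of 22, helper subset regulators and cytokines at 18 of 27, naive and memory genes at 9 of 16, cytokine receptor and signalling genes at 10 of 22, chemokine receptor and homing genes at 7 of 16, cytotoxic genes at 5 of 11 and inhibitory receptors at 4 of 10. Lists of other cell types had 4 of 12 B-cell, 4 of 13 myeloid, 3 of 8 erythroid, 3 of 8 muscle and 2 of 10 hepatocyte genes. Per Mb of eligible sequence the order differed, with 134.0 regions for core T-cell genes and 143.6 for activation genes, but 94.4 for helper genes, 75.5 for cytokine receptors and 58.3 for cytotoxic genes against 101.3 for erythroid genes, whose median eligible sequence was 4617.5 bp, and 75.4 for muscle genes. Housekeeping genes stood at 5 of 10 and, with 7 regions, at 126.7 per Mb, close to core T-cell genes. All genes with eligible sequence stood at 33.5 per Mb.

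The regions of core T-cell and activation genes were mostly above the median of all upstream regions by pile-up, and those of core T-cell genes mostly below it by signal. The 23 upstream regions of core T-cell genes had median pile-ups of 187 and 129, against 75 and 55 over all upstream regions, and 19 of 23 exceeded that median in each library. Their median signals were 4.199 and 4.13, below the 6.18 and 5.99 of all upstream regions, and 5 and 6 of 23 exceeded it. The median background was 41.7 and 31.7, against 10.03 and 7.52. Activation genes had 27 regions with median pile-ups of 176 and 125, of which 24 exceeded the median in each library, and median signals of 5.35 and 5.35, with 11 and 13 of 27 above the median of all upstream regions. The 7 regions of housekeeping genes had median pile-ups of 198 and 137 and signals of 2.35 and 2.73. The 4 erythroid regions had pile-ups of 43.5 and 33.5 and signals of 7.36 and 7.23.

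Among genes of T-cell activation, the region strongest by mean signal lay 7920 bp upstream of Rel, which encodes an NF-kB subunit, with 15.5 and 14.2. The Rel promoter had 9.44 and 10.02 by signal, but its pile-ups of 676 and 526 were above the 238 and 169 of the upstream region. Cd69, an early activation antigen that holds cells in tissue, had a region 9158 bp upstream with signals of 14.7 and 14.7, above those of the Rel region in replicate 2, and pile-ups of 571 and 434. It exceeded the promoter on both measures, the latter having 7.54 and 6.70 and pile-ups of 413 and 282. Il2, the T-cell growth factor, had a region at 2555 bp with signals of 8.75 and 8.17 and pile-ups of 363 and 253. A second lay at 8365 bp with 10.1 and 9.46 and pile-ups of 107 and 81. The Il2 promoter was at 3.95 and 3.63, with pile-ups of 175 and 122, so the 2 regions were in one order by signal and in the other by pile-up. Il2ra, the alpha chain of the receptor for this cytokine, had 6.68 and 7.01 at 5436 bp and 2.88 and 2.30 at 7536 bp.

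Irf4, a transcription factor induced by T-cell receptor signalling, had its stronger region 9281 bp upstream, printed above with its AP-1 match, at 9.88 and 10.4. This exceeded the Irf4 promoter by signal (5.39 and 5.82) but not by pile-up, at 144 and 109 against 391 and 290. Batf, an AP-1 factor that pairs with Irf4, had 5.68 and 7.85 at 6680 bp. Myc, which drives growth, had 3.19 and 3.41 at 1983 bp, with a CTCF match, and 2.29 and 2.44 at 3740 bp. Pdcd1, which encodes the inhibitory receptor PD-1, had 5.30 and 5.21 at 1205 bp with pile-ups of 333 and 242. That interval is 2111 bp wide and covers the start, and no separate promoter region was called for Pdcd1.

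Among core and naive T-cell genes, Runx3, a factor of CD8 and helper differentiation, had 12.9 and 12.1 at 6059 bp, below its promoter at 17.4 and 15.8. Ccr7, a chemokine receptor that guides cells into lymph nodes, had 10.3 and 9.49 at 5881 bp, above its promoter by signal (6.10 and 6.00) and slightly below it by pile-up (420 and 286 against 468 and 317). Il7r, which encodes the survival receptor for interleukin 7, had 9.92 and 9.87 at 5575 bp with AP-1 and NF-kB matches, against 4.42 and 3.74 at its promoter. The pile-ups there were 225 and 166 against 244 and 145, so the order differed between the libraries. A weaker Il7r region at 3742 bp had 2.20 and 2.07. Cd3e, part of the T-cell receptor complex, had 7.95 and 6.44 at 9495 bp. Cd247, which encodes its zeta chain and had no promoter region, had 9.92 and 8.24 at 7979 bp, within 1000 bp of a RefSeq messenger RNA start. Cd4 had 3.29 and 2.93 at 5617 bp, Tcf7 2.41 and 2.81 at 1234 bp, and Lef1 3.24 and 1.88 at 4093 bp, all below the median of all upstream regions by signal, although Tcf7 and Lef1 were above it by pile-up, with 84 and 71 at Tcf7. The Tcf7 region lay within 1000 bp of a RefSeq messenger RNA start, and Tcf7 had no promoter region in both libraries. At Lef1 the pile-ups were 95 and 57 and the backgrounds 28.6 and 29.8. Bach2 had no upstream region, with 9000 bp of eligible sequence, and a promoter region at 7.96 and 7.27.

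**Figure D5:**
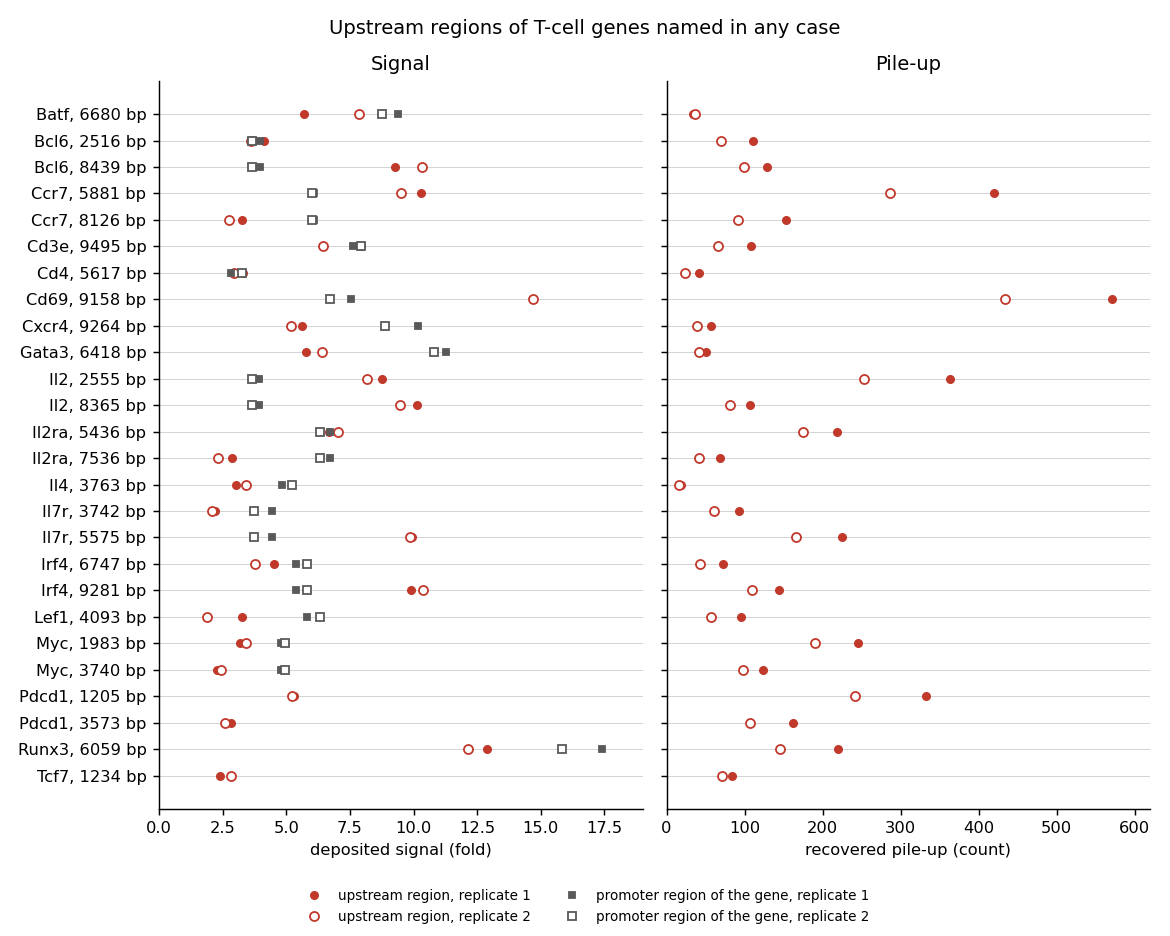
Deposited signal (left, fold) and recovered pile-up (right, count) of every upstream region of the T-cell genes named in any case, with the distance in bp beside the gene name. Filled red circles are replicate 1 and open red circles replicate 2, and grey squares on the left are the gene's own promoter region (filled replicate 1, open replicate 2); Cd69 is highest on the right at 571 and 434, and Runx3 has the highest promoter on the left at 17.4 and 15.8.

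Cytokine and helper subset genes were mixed. The Il4ra region at 8467 bp, which holds an AP-1 sequence, had 10.46 and 10.3, above the promoter by signal (4.64 and 4.79) and below it by pile-up (145 and 104 against 316 and 237). Ifnar1, a type I interferon receptor chain, had 10.6 and 11.4 at 9258 bp, with an AP-1 sequence. Bcl6, the follicular helper repressor, had 9.26 and 10.3 at 8439 bp and 4.12 and 3.595 at 2516 bp. Gata3, the type 2 helper factor, had 5.78 and 6.41 at 6418 bp, and Il4, its target cytokine, 3.03 and 3.40 at 3763 bp with pile-ups of only 18 and 16. Ifng, the type 1 helper cytokine, had neither an upstream region nor a promoter region in both libraries, although 9000 bp were eligible. Tbx21, which encodes the type 1 factor T-bet, had no shared upstream region either, but 1 in replicate 1 alone and a promoter region at 7.17 and 7.26. Ctla4 and Cd28 owned no eligible sequence and Socs1 only 561 bp, so they could hardly have one.

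A few regions outside the naming rule are given because of their values. Il10, an anti-inflammatory cytokine, had a region at 9179 bp with signals of 9.94 and 9.15 and pile-ups of 253 and 184, above its promoter at 81 and 63. Il17f had one at 1041 bp with 10.1 and 9.94, and pile-ups of 166 and 121 against 46 and 38 at its promoter. Lck, the kinase that starts T-cell receptor signalling, had 547 and 410 at 1740 bp, above the 366 and 283 of its strongest promoter region. Cd2, Cd5 and Egr3 each had 3 upstream regions.

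The strongest regions overall differed between the 2 scales. By mean signal the first 8 lay upstream of Gm13283 (19.7 and 18.96), Klk1b24 (21.02 and 17.6), Gm11273 (20.4 and 18.1), Gip (19.5 and 18.8), Mefv (19.5 and 18.8), Gstp3 (20.5 and 17.2), Sfpq (19.9 and 17.5) and Rai14 (19.4 and 17.9). The first 5 of these genes had no promoter region in both libraries, and Gip encodes a gut hormone and Klk1b24 a kallikrein. The Gip and Mefv regions held an AP-1 sequence. The Gm13283 region lay within 1000 bp of a RefSeq messenger RNA start. The first 3 by pile-up lay upstream of Zfp869 (1003 and 717), Nfat5 (924 and 705) and Fbrs (960 and 677), of which the first and last were within 1000 bp of a RefSeq messenger RNA start. The 10 highest also included Cd52, a lymphocyte surface antigen, at 2218 bp with 795 and 575, Tnfrsf18, a costimulatory receptor, at 4022 bp with 799 and 526, and Nr4a3, an activation-induced nuclear receptor, at 1871 bp with 736 and 516. By signal these 3 were only 1110th, 2328th and 1748th. None of the 8 highest by signal was among the 10 highest by pile-up.

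Genes with 3 upstream regions show how far they vary within one gene. Cd47, the surface signal that protects cells from being engulfed, had 3.71 and 3.62 at 1495 bp, 6.42 and 6.34 at 3376 bp, and 11.1 and 9.997 at 9525 bp. Their pile-ups were 139 and 106, then 262 and 202, then 297 and 198. Ldha, which encodes lactate dehydrogenase A, had 8.88 and 9.73 at 2480 bp, 9.96 and 8.55 at 8043 bp and 6.37 and 6.73 at 9165 bp. In Cryba2, a lens crystallin gene, the region at 1772 bp had 12.2 and 11.9 and those at 7647 and 8707 bp had 3.602 and 3.25, and 4.66 and 3.29. Nearest genes were assigned by position alone, and whether a region acts on that gene was not tested.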

How the data were processed

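The data were peak lists of 2 ATAC-seq libraries on mm10, in narrowPeak format per the deposited notes, each derived from its own library. Aligner, peak caller, versions and threshold are not given in the sources used here, and no read shift could be checked. The authors' fifth-column score was not used. The deposited signal is a ratio, read as fold enrichment from its values. The authors' −log10 p and −log10 q were taken as deposited. The smallest −log10 q were 1.02 and 1.01. Of 78104 and 74733 deposited peaks, 76230 and 72904 on chromosomes 1 to 19 were used.

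Starts were the 52092 starts of coding transcripts of 20722 protein-coding genes in GENCODE mouse release 21. The 85 genes without one were left out. Sequence came from GRCm38.p6. Of 20 consensus sequences, matches on either strand within 100 bp around the summit were counted, and windows centred 500 bp away served as flanks. A motif match can overlap another.

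Pile-up and background were solved from signal and −log10 p, a step chosen after seeing the data. Poisson tails and Clopper-Pearson intervals came from scipy 1.17.1, with numpy 2.4.6, pandas 2.3.3, pysam 0.24.0 and Python 3.11.15. The code was tested on simulated data.

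The members, the 14 gene lists, the sequences and the comparisons were chosen with earlier results of these data known. Named regions were the 8 of highest mean signal (geometric mean of both libraries), the 8 genes with most regions, the 2 strongest genes of each list, the 3 largest library ratios, the 3 strongest with CTCF, AP-1 or the composite, and 24 fixed T-cell genes. A part of them is described, and some items are not reported here. Alternatives were stricter peaks, overlap and starts, other windows, and each library alone.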

Additional observations from a re-analysis of the deposited data

How the results depend on the processing

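No paired analysis was possible because there was 1 group. With only the 50000 peaks of highest signal per library, the upstream regions fell to 2394, the density ratio to 0.576 and the share of genes to 13.8%, while AP-1 and CTCF shares were 17.8% and 8.69%. With the 50000 peaks of highest pile-up, chosen after seeing the data, the density ratio was 1.06, on the other side of 1, and the share of genes 14.8%. A 200 bp window gave 21.5% for AP-1 and 8.33% for CTCF, a distance of 500 bp gave 4.84% near noncoding starts, and a near step of 1000 to 3000 bp a density ratio of 0.828. A −log10 q of at least 5 gave 18.8% of genes. Leaving out regions within 1000 bp of a RefSeq messenger RNA start, also chosen after seeing the data, gave a density ratio of 0.792, with the eligible sequence unchanged, and 19.3% of genes. With one library left out, so that peaks and summits came from the other alone, the ranges were 4314 to 4583 regions, 0.874 to 0.895, 15.4% to 15.8% for AP-1, 6.57% to 6.65% for CTCF, 6.56% to 6.90% near noncoding starts and 22.1% to 22.9% of genes. Stricter overlap, gene 5′ ends alone and the summit of replicate 1 moved the region count by less than 1.5 times, the density ratio by less than the SD between libraries and no share beyond its counting interval. The number of regions was 2802 with the 50000 peaks of highest pile-up and 3561 with the stricter −log10 q, both within 1.5 times of 3866. The causes were not tested. Depth per library is unknown, the lists hold only peaks past a threshold, and 2 libraries give no estimate of the spread between animals.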

Other observations

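Peaks at upstream positions in 1 library alone were mostly weak, but a few in replicate 1 were not. The strongest lay 9544 bp upstream of Fcgr3, which encodes a receptor for antibody constant regions, at chr1:171074300-171074684, with a signal of 17.0 and a pile-up of 102 over a background of 5.04. Others lay 5469 bp upstream of Smyd2 (signal 14.7, pile-up 112) and 8221 bp upstream of Ranbp6 (signal 13.9, pile-up 83). Of 6 merged regions in replicate 1 alone with a signal over 12, in all classes of position, 3 were at upstream positions. Upstream regions made up 5.92% of shared regions, but 6 regions are too few to read a share from. Replicate 2 alone had 1 region with a signal over 12 in all classes and 0 at upstream positions. In replicate 2 alone the strongest at upstream positions was near Dpy30, with a signal of 9.55 and a pile-up of 44. Repeats made up 24.4% of the Fcgr3 interval, 36.8% of the Smyd2 interval, none of the Ranbp6 interval and 61.2% of the Dpy30 interval. Their part in the difference was not tested.

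Summit windows mostly made of annotated repeats were found in 6.75% of upstream regions and 4.66% of all shared regions. The shares were 5.58% of gene-body regions, 5.57% of far intergenic regions and 0.751% of promoter regions. The differences were not tested.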
